A study of Mus musculus with 2 samples.

Results

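Nonclassical patrolling monocytes were taken from 2 single-cell libraries of mouse liver as the barcodes that carried at least 3 of the 5 genes Ace, Treml4, Ear2, Adgre4 and Spn with at least 1 unique molecular identifier (UMI). They also had to hold at least 1 UMI of Lyz2, no more than 2 UMIs of C1qa, C1qb and C1qc together, and no UMI of Cd3e, Cd79a or Siglech. Of 20753 kept barcodes, 112 met this rule, 34 in the CCl4+IPA library and 78 in the CCl4 library. The rule read the expression of these genes, so their levels are given below as a description of what was chosen.

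The study profiled liver cells of mice with fibrosis induced by carbon tetrachloride (CCl4), a hepatotoxin. One group was also given indole propionic acid (IPA), which gut bacteria make from tryptophan, and the other was its control, so CCl4 exposure is common to both. Each group had 1 library, while strain, age, dose and number of animals are not given in the sources used here. Tissue was digested with collagenase IV, papain and DNase, red cells were lysed and dead cells were removed before capture with the 10x Genomics 3′ V3 chemistry. Since no group has a second library, no p-value can be given, and every comparison between groups compares these libraries and not the treatments. Intervals are exact 95% intervals and cover counting error only.

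Monocytes leave the bone marrow mainly as classical, Ly6C-high cells, which enter inflamed tissue and can become macrophages. Nonclassical, Ly6C-low cells derive largely from them under the transcription factor Nr4a1, remain in the blood vessels and crawl along the endothelium, held by the integrin LFA-1. They are known for clearing debris from the vessel wall, including the liver sinusoids, and depend on the receptors Cx3cr1 and Csf1r to survive.

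The CCl4+IPA library held 10471 deposited barcodes with 37983923 UMIs and the CCl4 library 10427 with 45009730 UMIs, of which 10459 barcodes in CCl4+IPA and 10294 in CCl4 were kept. The median kept barcode had 2772 UMIs in the CCl4+IPA library and 3195 UMIs in the CCl4 library. Nonclassical monocytes were deeper, at a median of 5636.5 UMIs (1519 to 35852) in the CCl4+IPA library, against 5859 UMIs (1132 to 19214) in the CCl4 library, and held 231323 UMIs in all in CCl4+IPA and 528566 in CCl4. The libraries share 23 deposited barcodes, and 1 nonclassical monocyte of the CCl4 library carries one of these. The 18S ribosomal RNA copy Rn18s-rs5 stood at 9943 counts per 1e+06 UMIs (CPM) in nonclassical monocytes of the CCl4+IPA library and 63074 CPM in those of the CCl4 library. In classical monocytes it stood at 8323 CPM in the CCl4+IPA library and 52715 CPM in the CCl4 library. The mitochondrial share of nonclassical UMIs was 1.24% in the CCl4+IPA library and 2.77% in the CCl4 library. An alternative scaled counts without mitochondrial, ribosomal protein and ribosomal RNA genes. Of 66 ratios of single genes between libraries, 63 then stayed inside their main interval, 3 left it and 0 were reversed. Any other part of either difference in the gene ratios below was not tested.

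Nonclassical monocytes were a smaller share of the CCl4+IPA library, while classical monocytes took up a like share of both. They made up 0.325% of kept barcodes in the CCl4+IPA library (34 of 10459, 0.225 to 0.454) and 0.758% in the CCl4 library (78 of 10294, 0.599 to 0.945). The ratio of these shares was 0.429 (0.278 to 0.650), and the intervals of the shares do not overlap. Classical monocytes were defined by at least 3 of Ly6c2, Ccr2, Vcan, F13a1, Chil3 and Fn1 with at most 1 of the 5 nonclassical genes. They also met the Lyz2, C1q, Cd3e, Cd79a and Siglech limits of the nonclassical rule. Unlike nonclassical monocytes, they further had to hold no UMI of Ngp, Ly6g or Cd209a. Classical monocytes made up 1.20% in the CCl4+IPA library (126 cells, 1.00 to 1.43) and 1.13% in the CCl4 library (116 cells, 0.932 to 1.35). Their ratio was 1.07 (0.824 to 1.39), an interval that includes 1.

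There were 0.270 nonclassical monocytes per classical monocyte in the CCl4+IPA library and 0.672 in the CCl4 library, a ratio of 0.401 (0.241 to 0.661). This ratio of the 2 monocyte types leaves the other cell types out of the denominator. Of those, reference NK cells (777 barcodes in CCl4+IPA and 403 in CCl4, ratio 1.90) had a larger share in the CCl4+IPA library. So did neutrophils (757 in CCl4+IPA and 592 in CCl4, ratio 1.26) and T cells (1596 in CCl4+IPA and 1342 in CCl4, ratio 1.17). Reference B cells (ratio 0.852) and plasmacytoid dendritic cells (ratio 0.816) had a smaller share there. Among all Lyz2-bearing barcodes that passed the other limits of the rule, nonclassical monocytes were 3.52% in the CCl4+IPA library (of 966) and 6.22% in the CCl4 library (of 1254), a ratio of 0.566 (0.367 to 0.857). A rule that asks for detected genes depends on depth, so each barcode was also thinned to 1500 UMIs. Of 9147 barcodes deep enough in the CCl4+IPA library 11 then met the rule (0.120%), against 28 of 9159 in the CCl4 library (0.306%).

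**Figure D1:**
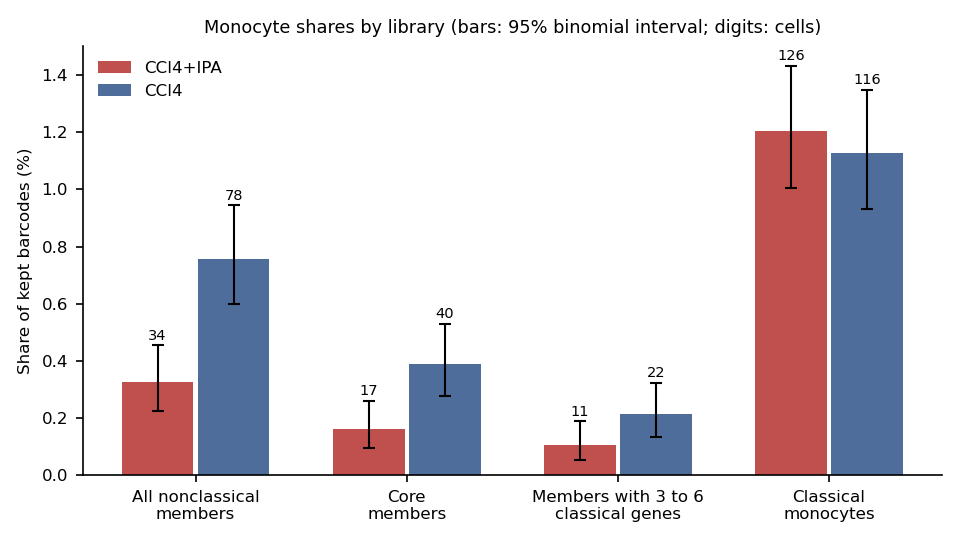
Share of kept barcodes (percent, vertical axis) of all nonclassical members, core members, members with 3 to 6 classical genes and classical monocytes. Members with 3 to 6 classical genes are here those without genes of another type. CCl4+IPA is in red left of CCl4 in blue. Lines are 95% exact binomial intervals and digits above them are cells. All members (34 and 78) and core members (17 and 40) are a lower share of the CCl4+IPA library, the intervals of members with classical genes overlap, and the classical bars (126 and 116 cells) overlap.

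Members were then split by the number of rule genes carried. Exactly 3 of the 5 genes were found in 20 nonclassical monocytes of the CCl4+IPA library and 31 of the CCl4 library, 4 genes in 8 of CCl4+IPA and 29 of CCl4, and all 5 in 6 of CCl4+IPA and 18 of CCl4. The ratio of shares was 0.635 (0.343 to 1.15) for cells with 3 genes, 0.272 (0.107 to 0.609) for those with 4 and 0.328 (0.107 to 0.863) for those with 5. The interval for cells with 3 genes includes 1, and the 3 intervals overlap. Just outside the rule, 41 barcodes of the CCl4+IPA library and 69 of the CCl4 library carried 2 of the 5 genes. Ace stood at 296 CPM in the CCl4+IPA library and 188 CPM in the CCl4 library just inside the threshold. Just outside it, Ace stood at 87.3 CPM in the CCl4+IPA library and 56.0 CPM in the CCl4 library.

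Not every barcode that met the rule looked like a nonclassical monocyte alone, and 3 classes were told apart after the members had been seen. Core members held at most 2 of the 6 classical genes and no set of genes of another cell type, and numbered 17 in the CCl4+IPA library and 40 in the CCl4 library (50.0% of members in CCl4+IPA and 51.3% in CCl4). Members with 3 to 6 classical genes and no set of genes of another cell type numbered 11 in the CCl4+IPA library and 22 in the CCl4 library. They are called members with classical genes below. The remaining 6 members in CCl4+IPA and 16 in CCl4 held over 5000 CPM of neutrophil genes, over 20000 UMIs, or at least 2 markers of T cells, B cells, NK cells, plasmacytoid dendritic cells, type 2 conventional dendritic cells (cDC2) or granulocyte progenitors. Neutrophil genes were the reason in 2 members of the CCl4+IPA library and 5 of the CCl4 library, and cDC2 genes in 2 of CCl4+IPA and 7 of CCl4. In single members the neutrophil list reached 310314 CPM in the CCl4+IPA library and 314620 CPM in the CCl4 library. Scrublet, a doublet caller, marked 1 member in CCl4+IPA and 2 in CCl4.

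The classes kept like proportions in both libraries, but the number of rule genes within them was less alike. Exactly 3 of the 5 were carried by 7 of 17 core members in CCl4+IPA and 7 of 40 in CCl4. Among members with classical genes, 10 of 11 did so in CCl4+IPA and 13 of 22 in CCl4. The part of this in the ratios between libraries was not tested. The ratio of core shares was 0.418 (0.222 to 0.755) and that of members with classical genes 0.492 (0.215 to 1.06). All members with 3 to 6 classical genes, those with genes of another type included, numbered 13 in CCl4+IPA and 27 in CCl4. Their ratio of shares was 0.474 (0.224 to 0.951). Of the 17 core members of the CCl4+IPA library, 2 stood apart with over 100 UMIs of Cd74, the invariant chain of MHC class II (219 and 105 UMIs), and together they held 23.2% of the UMIs of that group. No core member of the CCl4 library passed 62 Cd74 UMIs. Results that move without these 2 barcodes are given both ways. Core members were the shallowest class, and their median was 3276 UMIs in the CCl4+IPA library, against 4203 UMIs in the CCl4 library. Members with genes of another type had medians of 10734.5 UMIs in CCl4+IPA and 11242.5 UMIs in CCl4.

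The label was checked on 26 nonclassical marker genes outside the rule, of which Apoc2 was at 0 in every member. Summed per cell, these genes had a median of 22894 CPM in core members of the CCl4+IPA library (7869 to 38835) and 23320 CPM in those of the CCl4 library (12802 to 33634). Members with classical genes lay lower, at 13810 CPM in the CCl4+IPA library and 12499 CPM in the CCl4 library. Classical monocytes lay at 9509 CPM in the CCl4+IPA library (2273 to 24655) and 8313 CPM in the CCl4 library (648 to 17288). Most core members therefore carried the label's wider signature, with some overlap with classical monocytes, and the members with classical genes stood between the types. The 2 core members of the CCl4+IPA library with over 100 Cd74 UMIs were exceptions. They lay at 7869 CPM and 8546 CPM, below the median of classical monocytes in that library. The 16 classical markers hold the 6 genes used to choose core members and classical monocytes, so their direction was partly fixed in advance. As a description, the list had a median of 5814 CPM in core members of the CCl4+IPA library and 3710 CPM in those of the CCl4 library. It reached 25738 CPM in classical monocytes of the CCl4+IPA library and 20170 CPM in those of the CCl4 library.

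All 5 Kupffer cell genes (Clec4f, Vsig4, Cd5l, Timd4 and Marco) were at 0 in nonclassical monocytes of both libraries. They were also at 0 in classical monocytes. Lyz2-bearing barcodes that passed the other limits held 2.53 CPM of them in the CCl4+IPA library and 2.49 CPM in the CCl4 library. A 0 therefore says little about these cells. The 6 macrophage markers, C1qa, C1qb and C1qc among them, stood at 134 CPM in nonclassical monocytes of the CCl4+IPA library and 155 CPM in those of the CCl4 library. In classical monocytes they stood at 139 CPM in CCl4+IPA and 130 CPM in CCl4. In core members the neutrophil list summed to 311 CPM in the CCl4+IPA library and 289 CPM in the CCl4 library, against 14854 CPM over all members in CCl4+IPA and 8578 CPM in CCl4. The cDC2 list had 0 UMIs in core members of the CCl4+IPA library and 2 UMIs in those of the CCl4 library. Core members were chosen under limits on both lists, so these low levels follow in part from the choice and are a description.

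**Figure D2:**
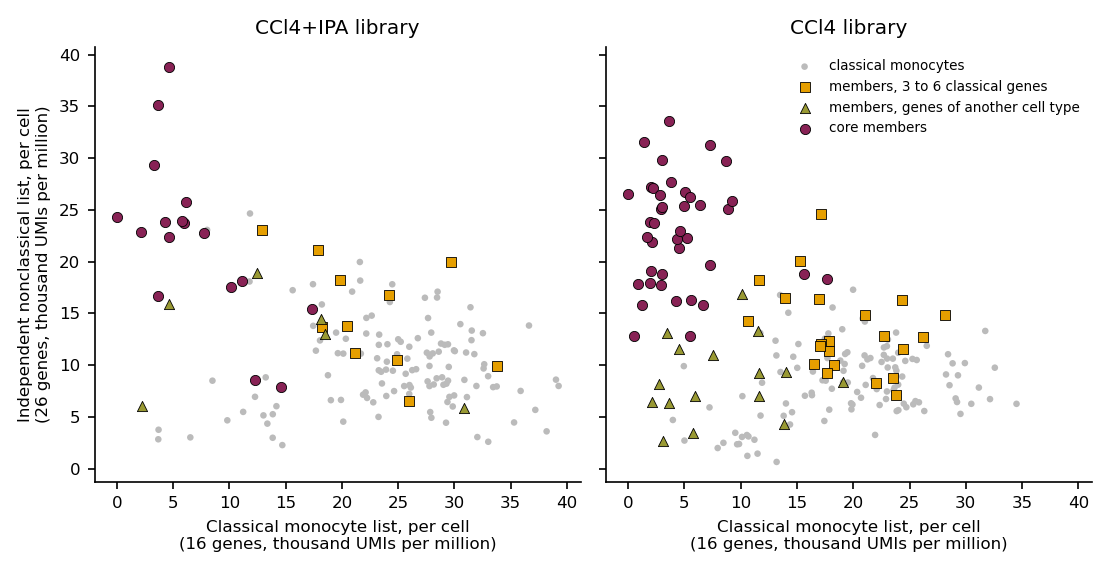
Each point is 1 barcode, with its summed level of 16 classical markers (horizontal) and of 26 nonclassical markers outside the rule (vertical), both in units of 1000 CPM, CCl4+IPA at left and CCl4 at right. The horizontal list holds the 6 classical genes used to choose the groups, so the order along it was partly fixed in advance. Core members (purple circles) sit mostly at the upper left, with medians on the vertical axis of 22894 CPM in CCl4+IPA and 23320 CPM in CCl4. In CCl4+IPA the 2 core members with over 100 Cd74 UMIs lie at 7869 CPM and 8546 CPM on that axis. Members with 3 to 6 classical genes and no genes of another type (orange squares) lie between core members and the classical monocytes (grey).

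The genes of the rule differed in how specific they were. Ace (ENSMUSG00000020681), encoding angiotensin-converting enzyme, was found in 88.2% of nonclassical monocytes of the CCl4+IPA library (406 CPM) and 82.1% of those of the CCl4 library (426 CPM). It was found in 7.14% of classical monocytes of the CCl4+IPA library and 7.76% of those of the CCl4 library, and in at most 0.277% of reference T or B cells. Adgre4 (ENSMUSG00000032915), an adhesion G protein-coupled receptor, was found in 76.5% of nonclassical monocytes of the CCl4+IPA library (281 CPM) and 88.5% of those of the CCl4 library (342 CPM). Treml4 (ENSMUSG00000051682), a receptor that binds dying cells, was found in 70.6% of them in the CCl4+IPA library (182 CPM) and 61.5% in the CCl4 library (202 CPM). Reference T and B cells held each of these 3 genes in under 0.3% of barcodes. They were chosen without Lyz2 and were shallower than nonclassical monocytes, so this share does not measure the level of free RNA in the libraries.

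Ear2 (ENSMUSG00000072596), a ribonuclease of the eosinophil-associated family, was found in 47.1% of nonclassical monocytes of the CCl4+IPA library (186 CPM) and 74.4% of those of the CCl4 library (403 CPM). Its near-identical family members can share its reads. Among members with classical genes Ear2 was found in 2 of 11 in the CCl4+IPA library and 14 of 22 in the CCl4 library. Spn (ENSMUSG00000051457), encoding the sialoglycoprotein CD43, was found in 76.5% of nonclassical monocytes of the CCl4+IPA library and 76.9% of those of the CCl4 library. It was also found in 56.1% of reference T cells of the CCl4+IPA library and 54.5% of those of the CCl4 library (median depths 3642 UMIs in CCl4+IPA and 4338 UMIs in CCl4), which carry CD43 themselves. When 3 of the 4 other genes were asked for, 20 barcodes of the CCl4+IPA library (0.191%) and 56 of the CCl4 library (0.544%) met the rule.

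Classical genes marked the boundary. Ly6c2, which encodes the Ly6C antigen, had 5 UMIs in core members of the CCl4+IPA library and 1 UMI in those of the CCl4 library. In classical monocytes it was found in 96.0% of cells of the CCl4+IPA library (2501 CPM) and 96.6% of those of the CCl4 library (1966 CPM). Ccr2, the receptor that brings classical monocytes into tissue, was at 252 CPM in core members of the CCl4+IPA library and 179 CPM in those of the CCl4 library. Without the 2 barcodes of high Cd74 it was at 38.6 CPM in CCl4+IPA (2 UMIs), below the CCl4 value. Core members were defined by these genes in part, so both are a description.

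Core members were next set against classical monocytes free of genes of another type (105 cells in the CCl4+IPA library and 90 in the CCl4 library), within each library. Both populations were chosen on the same counts, so these ratios describe them and no test is given. In the following comparisons, higher and lower are said of core members against classical monocytes of the same library. Of 4450 genes with at least 20 UMIs over both populations in each library, 208 were at least 2-fold higher in core members in both libraries (4.67%) and 226 at least 2-fold lower (5.08%). Of the nonclassical markers outside the rule 21 were measured, and 20 of these were above 1 in the CCl4+IPA library and 21 in the CCl4 library, with a median log2 ratio of 1.99 in each. Over all genes the median was −0.04 in CCl4+IPA and 0.02 in CCl4, with 48.5% above 1 in CCl4+IPA and 51.1% in CCl4.

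Immune receptors of the CD300 and Fc families were among the most unequal genes. Cd300e (ENSMUSG00000048498), an activating receptor, had 13 UMIs in 8 of 17 core members of the CCl4+IPA library and 56 UMIs in 18 of 40 of the CCl4 library. It had 0 UMIs in all classical monocytes and in all reference T and B cells of both libraries, which makes core members at least 42.2-fold higher in the CCl4+IPA library and at least 79.5-fold higher in the CCl4 library. The floor behind these bounds is 3 UMIs over the classical group. Cd300ld, a related receptor, was 11.4-fold higher than in classical monocytes in the CCl4+IPA library (6.35 to 20.5) and 11.1-fold in the CCl4 library (7.63 to 16.5). Fcgr4 (ENSMUSG00000059089), a low-affinity IgG receptor, was at 356 CPM in core members of the CCl4+IPA library and 394 CPM in those of the CCl4 library, 9.35-fold (5.11 to 17.1) above classical monocytes in CCl4+IPA and 21.0-fold (11.4 to 41.5) in CCl4. Of 5 Fc receptor genes 3 were above 1 in the CCl4+IPA library and 2 in the CCl4 library, and Fcgr1, of the high-affinity IgG receptor, stood at ratios of 0.229 in the CCl4+IPA library and 0.508 in the CCl4 library. The list of inhibitory and pattern receptors was divided, with 7 of 13 measured above 1 in the CCl4+IPA library and 8 in the CCl4 library. Those that were higher included Pilra (6.12-fold in CCl4+IPA and 6.71-fold in CCl4) and Cd274, which encodes PD-L1 (24.3-fold in CCl4+IPA and 19.6-fold in CCl4). The collagen receptor Lair1, which is not on that list, was 13.3-fold higher in CCl4+IPA and 10.3-fold in CCl4.

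Genes of adhesion and crawling were higher too, with exceptions. Itgal (ENSMUSG00000030830), the alpha chain of LFA-1, was at 875 CPM in core members of the CCl4+IPA library and 1330 CPM in those of the CCl4 library, 3.96-fold (2.88 to 5.40) above classical monocytes in CCl4+IPA and 6.76-fold (5.43 to 8.44) in CCl4. Its partner chain Itgb2 was 2.27-fold (1.61 to 3.15) higher in CCl4+IPA and 2.32-fold (1.76 to 3.05) in CCl4. Ceacam1, a homophilic adhesion molecule, was 4.13-fold higher in CCl4+IPA and 5.56-fold in CCl4. Of 16 adhesion genes measured, 11 were above 1 in the CCl4+IPA library and 12 in the CCl4 library, with median log2 ratios of 0.33 in CCl4+IPA and 0.60 in CCl4.

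Receptors for chemotaxis and egress differed among themselves. S1pr5, a sphingosine-1-phosphate receptor with which nonclassical monocytes of the mouse leave bone marrow, was 10.8-fold (3.95 to 30.1) higher in CCl4+IPA and 8.99-fold (3.88 to 22.6) in CCl4. Cxcr4, the receptor of the marrow chemokine CXCL12, was 2.26-fold higher in CCl4+IPA and 2.20-fold in CCl4. Cx3cr1, the fractalkine receptor, had smaller ratios, of 1.39 (0.885 to 2.11) in the CCl4+IPA library, an interval that includes 1, and of 1.80 (1.40 to 2.29) in the other. It was found in 76.5% of core members of the CCl4+IPA library and 87.5% of those of the CCl4 library, but also in 67.5% of classical monocytes in CCl4+IPA and 75.9% in CCl4. Ccr1, a receptor of inflammatory chemokines, had 0 UMIs in core members of both libraries.

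Among transcription factors the largest ratios were not those of Nr4a1. Hes1 (ENSMUSG00000022528), a repressor induced by Notch signals, was 10.1-fold (5.89 to 17.2) higher in core members in CCl4+IPA and 8.99-fold (6.45 to 12.7) in CCl4. Tcf7l2, a factor of the Wnt pathway, was 11.7-fold higher in CCl4+IPA and 9.23-fold in CCl4, and Pou2f2, an octamer-binding factor, 5.01-fold in CCl4+IPA and 4.32-fold in CCl4. Nr4a1 (ENSMUSG00000023034), on which these cells depend, was 1.39-fold (1.13 to 1.69) higher in CCl4+IPA and 2.25-fold (1.95 to 2.59) in CCl4. It was found in most cells of every kind looked at, including 73.6% of reference T cells in the CCl4+IPA library and 61.3% in the CCl4 library. Klf4 was at 1.22 (0.992 to 1.50) in the CCl4+IPA library, against 2.22 (1.96 to 2.51) in the CCl4 library, and Klf2 at 0.771 (0.642 to 0.920) in CCl4+IPA and 1.42 (1.27 to 1.57) in CCl4, but without the 2 barcodes of high Cd74 the CCl4+IPA ratios were 1.34 (1.07 to 1.67) for Klf4 and 0.967 (0.802 to 1.16) for Klf2.

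Survival and signalling genes followed. Bcl2a1b, an anti-apoptotic gene, was 51.9-fold (14.9 to 278) higher in CCl4+IPA and 58.5-fold (21.6 to 222) in CCl4, from 3 UMIs in classical monocytes of CCl4+IPA and 4 in those of CCl4, and its near-identical copies may take or lend reads. Bcl2 was 9.74-fold higher in CCl4+IPA and 33.0-fold in CCl4, and Csf1r, the receptor of the growth factor that sustains monocytes, 1.46-fold (1.03 to 2.03, or 0.973 to 2.09 without the 2 barcodes of high Cd74) in CCl4+IPA and 2.42-fold (1.95 to 2.99) in CCl4. The phosphatase genes Dusp16 (21.4-fold in CCl4+IPA and 28.9-fold in CCl4) and Dusp5 (7.37-fold in CCl4+IPA and 15.8-fold in CCl4), the adaptor genes Stap1 (5.73-fold in CCl4+IPA and 6.96-fold in CCl4) and Traf1 (8.35-fold in CCl4+IPA and 27.4-fold in CCl4) and the G protein subunit gene Gngt2 (5.71-fold in CCl4+IPA and 3.97-fold in CCl4) were higher in both libraries. Of 12 genes of the NF-kB pathway 11 were above 1 in the CCl4+IPA library and 8 in the CCl4 library.

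Lipid and lysosomal genes were mixed. Fabp4, a fatty acid carrier, had 38 UMIs in core members of the CCl4+IPA library and 55 UMIs in those of the CCl4 library, against 1 UMI in classical monocytes of CCl4+IPA and 5 in those of CCl4. The ratios were 370 (62.5 to 14998) in CCl4+IPA and 46.8 (18.9 to 150) in CCl4. The tetraspanin gene Cd9 was 19.5-fold (7.87 to 52.6) higher in CCl4+IPA and 28.4-fold in CCl4, and the protease gene Ctsb 2.01-fold in CCl4+IPA and 2.69-fold in CCl4. Ctsc, a protease that activates granule enzymes, was lower, at 0.360 (0.218 to 0.562) in CCl4+IPA and 0.302 (0.214 to 0.415) in CCl4.

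Interferon-response genes were mostly below 1 in core members over classical monocytes. Of 21 interferon-response genes measured, 19 were below 1 in the CCl4+IPA library and 20 in the CCl4 library, with median log2 ratios of −1.44 in CCl4+IPA and −1.32 in CCl4. Ifi209 was at 0.197 (0.0719 to 0.435) in CCl4+IPA and 0.328 (0.184 to 0.545) in CCl4. Of 9 fibrosis mediators, 8 were below 1 in the CCl4+IPA library and 7 in the CCl4 library. Without the 2 barcodes of high Cd74, 5 of the 9 were below 1 in CCl4+IPA, where 53.0% of all genes were then above 1, and Ecm1 was at 0 UMIs. Thbs1, encoding the matrix protein thrombospondin-1, had 4 UMIs in core members of each library, with ratios to classical monocytes of 0.118 (0.0320 to 0.305) in CCl4+IPA and 0.121 (0.0325 to 0.316) in CCl4. Lgals3, encoding galectin-3, was at 0.400 (0.297 to 0.528) in CCl4+IPA and 0.372 (0.307 to 0.446) in CCl4, and the cytoskeletal gene Vim at 0.267 (0.190 to 0.365) in CCl4+IPA and 0.213 (0.169 to 0.266) in CCl4.

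**Figure D3:**
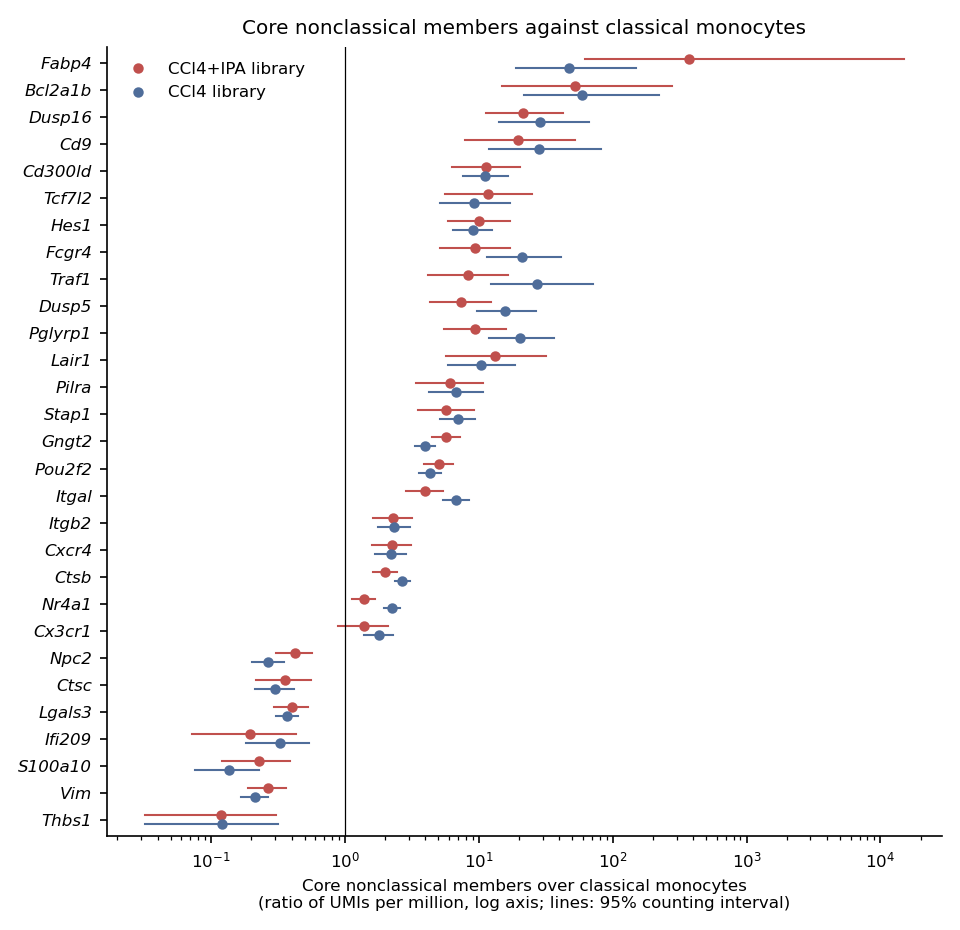
Ratio of CPM in core members over classical monocytes (log axis) for named genes, with CCl4+IPA in red above CCl4 in blue; lines are 95% counting intervals. Genes from Fabp4 down to Ctsb lie right of 1 in both libraries, Thbs1 and Vim lie left of it, and the interval of Cx3cr1 in the CCl4+IPA library (0.885 to 2.11) crosses 1.

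**Figure D4:**
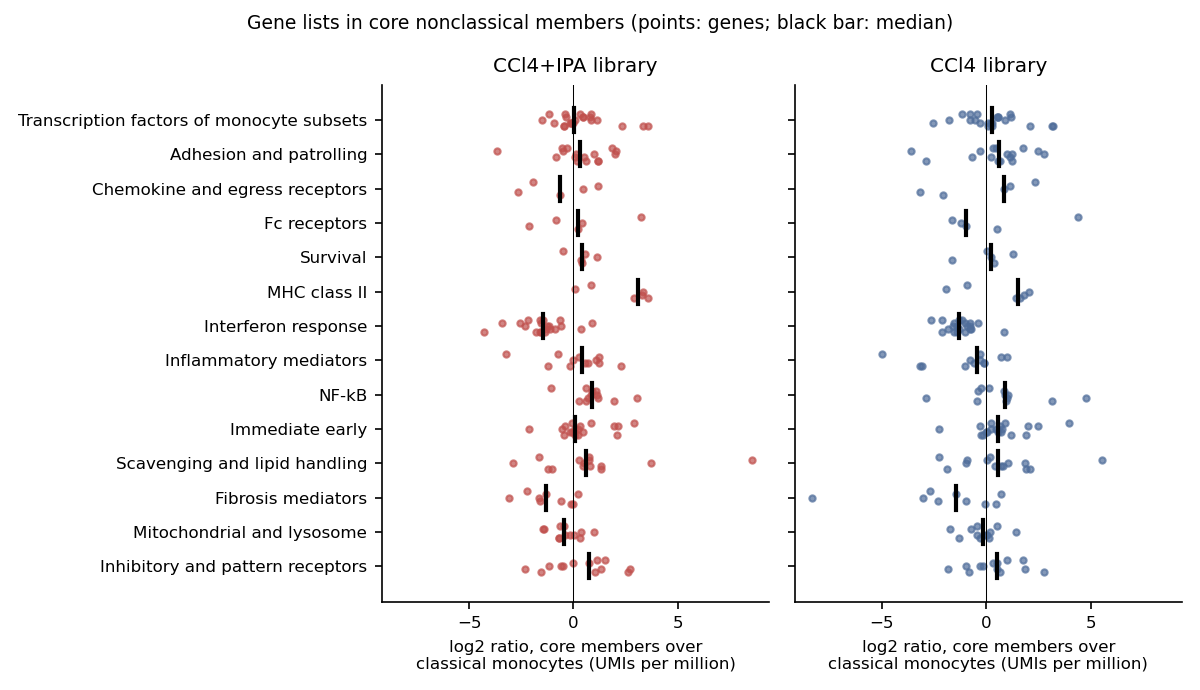
Log2 ratio of core members over classical monocytes for each measured gene of 14 lists, CCl4+IPA at left and CCl4 at right; black bars are list medians. The interferon-response list lies left of 0 in both (medians −1.44 in CCl4+IPA and −1.32 in CCl4) and the NF-kB list right of 0 (0.88 in CCl4+IPA and 0.89 in CCl4), while the inflammatory list has medians of 0.41 in CCl4+IPA (0.04 without the 2 barcodes of high Cd74) and −0.45 in CCl4.

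All members against all classical monocytes, again within a library, gave smaller ratios for the markers named next and added genes of other cells. Fabp4 was 150-fold higher in CCl4+IPA and 21.1-fold in CCl4, Dusp16 9.83-fold in CCl4+IPA and 15.8-fold in CCl4 and Cd9 7.67-fold in CCl4+IPA and 8.59-fold in CCl4. The granule genes Ltf, Camp and Lcn2 also led this comparison, but 1 barcode held 100% of the Ltf and Camp UMIs of the CCl4+IPA members. Of the CCl4 members 1 barcode held 73.1% of the Ltf and 71.3% of the Camp UMIs. Barcodes with Ngp, Ly6g or Cd209a were left out of the classical monocytes only, and the part of this unequal limit in these ratios was not tested. Elane, Prtn3, Mpo and Ctsg, genes of granulocyte progenitors, were among the lowest. Of 6221 genes measured, 122 were at least 2-fold higher in both libraries (1.96%) and 89 at least 2-fold lower (1.43%).

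The second comparison asked how nonclassical monocytes differed between the libraries. Of 4875 genes with at least 20 UMIs over both libraries, 326 were at least 2-fold higher in the CCl4+IPA library (6.69%) and 187 at least 2-fold lower (3.84%). The median log2 ratio of all genes was 0.14, with 60.8% of genes above 1, and list medians are read beside it. In core members, where 1928 genes were measured, 140 were at least 2-fold higher (7.26%) and 102 at least 2-fold lower (5.29%), with a median of 0.08 and 56.6% of genes above 1. In classical monocytes 5.85% of 8004 genes were at least 2-fold higher and 3.82% at least 2-fold lower, with a median of 0.13 and again 60.8% above 1, so those shares were near the nonclassical ones. In classical monocytes without genes of another type, the set to read beside core members, 5.73% of 6358 genes were at least 2-fold higher and 1.59% at least 2-fold lower, with a median of 0.17 and 65.2% above 1.

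Genes of lipid handling were divided between the libraries. Of 14 scavenging and lipid genes measured in all members 5 were above 1, with a median log2 ratio of −0.21, and of 9 in core members 6 were, with a median of 0.43. Apoe, Eno3, Slc12a2, Cst3 and Fyb were among the 10 lowest genes by the interval bound nearest to 1. Apoe (ENSMUSG00000002985), encoding apolipoprotein E of lipid transport, stood at 1033 CPM in nonclassical monocytes of the CCl4+IPA library and 2724 CPM in those of the CCl4 library, a ratio of 0.379 (0.329 to 0.435). In core members it was at 2091 CPM in the CCl4+IPA library and 4164 CPM in the CCl4 library, a ratio of 0.502 (0.416 to 0.603), and 1 barcode held 32.6% of the CCl4+IPA core UMIs. Its ratio was 0.976 (0.903 to 1.06) in classical monocytes, but 0.727 (0.669 to 0.790) in those without genes of another type, so a lower level was not particular to nonclassical cells. Thinned to 1500 UMIs, which left 11 members in CCl4+IPA and 28 in CCl4, the log2 ratio of Apoe turned to 0.35. In reference B cells Apoe was at 213 CPM in the CCl4+IPA library and 275 CPM in the CCl4 library, and in reference T cells at 16.8 CPM in CCl4+IPA and 25.1 CPM in CCl4. The part of free RNA in the nonclassical difference was not tested.

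Eno3 (ENSMUSG00000060600), encoding an enolase of glycolysis, had 17 UMIs in nonclassical monocytes of the CCl4+IPA library and 113 UMIs in those of the CCl4 library, a ratio of 0.344 (0.193 to 0.575). In core members it had 8 UMIs in CCl4+IPA and 90 in CCl4, a ratio of 0.214 (0.0897 to 0.440), found in 35.3% of those of the CCl4+IPA library and 70.0% of those of the CCl4 library. Slc12a2, encoding a sodium, potassium and chloride cotransporter, had 9 UMIs in the CCl4+IPA library and 74 UMIs in the CCl4 library (0.278, 0.122 to 0.557). Classical monocytes held little of either gene, with 5 UMIs of Eno3 in CCl4+IPA and 6 in CCl4, and 2 UMIs of Slc12a2 in each library. Cst3, encoding the protease inhibitor cystatin C, was at 0.631 (0.575 to 0.692) in all members and 0.700 (0.603 to 0.811) in core members, against 1.09 (1.02 to 1.16) in classical monocytes, but its log2 ratio was 0.17 after thinning and 0.14 with 2 rule genes. Fyb, an adaptor gene of integrin activation, was at 0.527 (0.410 to 0.671) and 0.552 (0.373 to 0.797), against 1.00 (0.852 to 1.17) in classical monocytes and 0.734 (0.617 to 0.873) in those without genes of another type.

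Hpgd, which inactivates prostaglandins, was at 0.216 (0.0840 to 0.468) in nonclassical and 0.134 (0.0695 to 0.237) in classical monocytes, and in core members of the CCl4+IPA library its 5 UMIs lay in 1 barcode. Lars2, whose gene holds a stretch like ribosomal RNA, was at 0.323 in nonclassical and 0.263 in classical monocytes and moved with Rn18s-rs5. The chemokine gene Cxcl2 was at 0.486 (0.381 to 0.613) in all members but 1.55 (1.14 to 2.11) in core members, where 1 barcode held 90.1% of the UMIs of the CCl4+IPA library.

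The nonclassical identity genes outside the rule had a median below that of all genes in the CCl4+IPA over CCl4 ratio. Of 25 measured in all members 9 were above 1, with a median log2 ratio of −0.23. In core members 6 of 25 were above 1 and the median was also −0.23. Without the 2 barcodes of high Cd74, 9 of the 25 were above 1 (58.9% of all genes) and the median was −0.20, against 0.14 over all genes. In classical monocytes 16 of 22 were above 1, with a median of 0.31, and in those without genes of another type 11 of 20, with a median of 0.03. Hes1 was at 0.633 (0.459 to 0.859) in all members and 0.655 (0.425 to 0.981) in core members, but 0.743 (0.469 to 1.14) in these without the 2 barcodes, an interval that includes 1. Stap1 was at 0.624 (0.452 to 0.850) in all members, 0.597 (0.386 to 0.896) in core members and 0.596 (0.364 to 0.937) without the 2 barcodes. Hes1 was also at 0.585 (0.361 to 0.930) in classical monocytes without genes of another type. Of the 25 intervals, 7 lay below 1 and 3 above it in all members, and 6 below and 1 above in core members. Without the 2 barcodes of high Cd74, 2 lay below and 2 above. Markers whose interval included 1 in all members were Fcgr4 at 0.954 (0.652 to 1.37) and Gngt2 at 0.871 (0.735 to 1.03), among others. Cd300e at 0.598 (0.328 to 1.03) and Pou2f2 at 1.12 (0.937 to 1.34) were also of this kind.

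Klf4 (ENSMUSG00000003032), a factor of monocyte differentiation, lay on opposite sides of 1 in the 2 types. It was at 1215 CPM in nonclassical monocytes of the CCl4+IPA library and 1659 CPM in those of the CCl4 library, a ratio of 0.732 (0.638 to 0.838), and at 0.668 (0.535 to 0.829) in core members. In classical monocytes its ratio was 1.42 (1.30 to 1.55), and 1.21 (1.10 to 1.34) in those without genes of another type. Csf1r likewise was at 0.785 (0.628 to 0.976) in nonclassical and 1.44 (1.23 to 1.68) in classical monocytes, though in core members its interval reached 1.03. Nr4a1 was at 1.33 (1.17 to 1.52) in all members, 0.908 (0.726 to 1.13) in core members, 1.13 in these without the 2 barcodes and 1.80 (1.64 to 1.99) in classical monocytes. Its relative Nr4a2 was at 2.15 (1.27 to 3.62) in all members and 4.28 (1.78 to 11.0) in core members, from 16 UMIs in the CCl4+IPA library and 9 in the CCl4 library.

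Adhesion genes were mostly below 1 in the same ratio in nonclassical monocytes. Of 16 measured in core members 2 were above 1, and the median log2 ratio was −0.40. The intervals of 4 of these 16 lay below 1 and of 0 above it. Without the 2 barcodes of high Cd74, 4 of the 16 were above 1 and the median was −0.32. The interval of every measured adhesion gene then included 1. In all members 6 of 18 were above 1, with a median of −0.22. In classical monocytes 15 of 18 were above 1, with a median of 0.29, and 12 of 17 in those without genes of another type, with a median of 0.17. Itgal was at 0.658 (0.485 to 0.881) in core members, against 1.35 (1.10 to 1.67) in classical monocytes and 1.12 (0.882 to 1.43) in those without genes of another type, and at 0.849 (0.689 to 1.04) in all members. Ceacam1 was at 0.527 (0.273 to 0.949) in core members. Without the 2 barcodes Itgal was at 0.784 (0.571 to 1.06) and Ceacam1 at 0.686 (0.355 to 1.24), and both intervals include 1. Itgb2 was at 1.30 (1.01 to 1.67) in all members and 1.32 (0.900 to 1.91) in core members, so the 2 chains of LFA-1 lay on opposite sides of 1. With Spn left out of the rule the log2 ratio of Itgb2 was −0.04 in all members.

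Interferon-response genes were mostly above 1 in the CCl4+IPA over CCl4 ratio in both monocyte types. In all members 17 of 18 measured were above 1, and the median log2 ratio was 0.71. In core members 4 genes were measured and 3 were above 1, with a median of 0.29. In classical monocytes 23 of 23 were above 1, and the median was 1.04, or 0.87 in those without genes of another type. Per cell, the list had a median of 1719 CPM in nonclassical monocytes of the CCl4+IPA library and 1139 CPM in those of the CCl4 library. In classical monocytes it had 2843 CPM in the CCl4+IPA library and 1662 CPM in the CCl4 library. Core members had 1526 CPM in the CCl4+IPA library (331 to 4105) and 900 CPM in the CCl4 library (0 to 3446), ranges that overlap widely.

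Irf1 (ENSMUSG00000018899), a factor induced by interferon, was at 3.21 (2.27 to 4.57) in all members, where 1 barcode held 48.2% of the CCl4+IPA UMIs. It was at 3.50 (1.53 to 8.35) in core members, from 16 UMIs in CCl4+IPA and 11 in CCl4, and at 2.06 (1.60 to 2.67) in classical monocytes. The interferon-response genes Ifi204 and Rnf213 were at 1.97 (1.46 to 2.65) and 2.15 (1.40 to 3.28) in all members. In core members Ifi204 was at 1.23 (0.682 to 2.17) and Rnf213 at 1.20 (0.323 to 3.87), so no difference was detectable at this depth. With at least 4 rule genes the log2 ratio was −0.02 for Ifi204 and −0.95 for Rnf213. Cxcl10 (7.46-fold) and Iigp1 (31 UMIs in CCl4+IPA against 0 in CCl4, at least 23.6-fold higher) led the ranking in all members, with 82.3% of the Cxcl10 UMIs and all Iigp1 UMIs of the CCl4+IPA library in 1 barcode each.

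Inflammatory mediators were divided in all members, with 8 of 14 measured above 1 and a median log2 ratio of 0.38. In core members 6 of 6 were above 1, with a median of 0.95, and 5 of 6 without the 2 barcodes of high Cd74. Tnf, Ccl2, Ccl5, Ccl6 and Ptgs2 were below 1 in all members along with Cxcl2, Ccl5 at 0.497 (0.344 to 0.702). The log2 ratio of Ccl5 became 1.48 without members with genes of another type, 1.24 with at least 4 rule genes and 0.010 with Spn left out. Ccl4 was at 852 CPM in nonclassical monocytes of the CCl4+IPA library and 376 CPM in those of the CCl4 library, a ratio of 2.26 (1.85 to 2.77). Ccl3 was at 588 CPM in the CCl4+IPA library and 305 CPM in the CCl4 library (1.93, 1.52 to 2.44), and Il1b, the interleukin-1 beta gene, at 1.52 (1.34 to 1.71), which thinning turned to −0.59 on the log2 scale. In core members Ccl4 was at 5.06 (3.58 to 7.23), Ccl3 at 2.53 (1.74 to 3.69), Ccl9 at 2.41 (1.57 to 3.69) and Il1b at 1.19 (0.924 to 1.53), the last at 0.928 (0.680 to 1.25) without the 2 barcodes. In classical monocytes Ccl4 was at 1.72 (1.54 to 1.91) and Ccl3 at 1.03 (0.898 to 1.19), and in those without genes of another type at 1.39 and 0.708 (0.601 to 0.833). Reference NK cells held 5454 CPM of Ccl4 in the CCl4+IPA library and 4955 CPM in the CCl4 library, and reference B cells 404 CPM in CCl4+IPA and 174 CPM in CCl4. The part of free RNA in the higher Ccl4 was not tested. Birc3, an NF-kB target that blocks cell death, was at 1.95 (1.25 to 3.02) in nonclassical and 1.65 (1.28 to 2.12) in classical monocytes.

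Antigen presentation genes depended on 2 barcodes. In core members H2-Eb1 was at a ratio of 20.7 (12.1 to 38.1), H2-Aa at 15.2 (10.3 to 23.1) and Cd74 at 7.98. The 2 core members of the CCl4+IPA library with over 100 Cd74 UMIs together held 89.1% of the H2-Eb1, 81.5% of the H2-Aa, 75.2% of the Cd74, 60.0% of the Ccl4 and 41.0% of the Ccl3 UMIs. Neither held a UMI of Ear2 or Cd300e. Without these 2 barcodes the ratios were 2.93 for H2-Eb1, 3.66 for H2-Aa, 2.58 for Cd74, 2.63 for Ccl4 and 1.95 for Ccl3. Over all members, the cDC2-gene barcodes of the CCl4 library included, H2-Eb1 was at 0.686 (0.598 to 0.785) and H2-Aa at 0.682.

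Crip1 and S100a6, genes typical of classical monocytes, were at 2.31 (1.85 to 2.88) and 2.25 (1.75 to 2.88) in core members, and at 1.36 and 1.22 in all members, though with at least 4 rule genes their log2 ratios were −0.25 and −0.13. They were at 0.997 (0.948 to 1.05) and 1.26 (1.20 to 1.33) in classical monocytes. In core members of both libraries they remained below classical monocytes, Crip1 at 0.704 in the CCl4+IPA library and 0.284 in the CCl4 library. Of the other genes with the highest ratios over all members, Retnlg, Mmp8, Osm, Stmn1 and Top2a had between 46.3% and 85.5% of their CCl4+IPA UMIs in 1 barcode, and Mmp8 had 0 UMIs in core members. Thbs1 was at 3.35 (2.24 to 5.05), with 61.9% of its CCl4+IPA UMIs in 1 barcode and 4 UMIs in core members of each library. Without members with genes of another type its log2 ratio was −0.33.

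**Figure D5:**
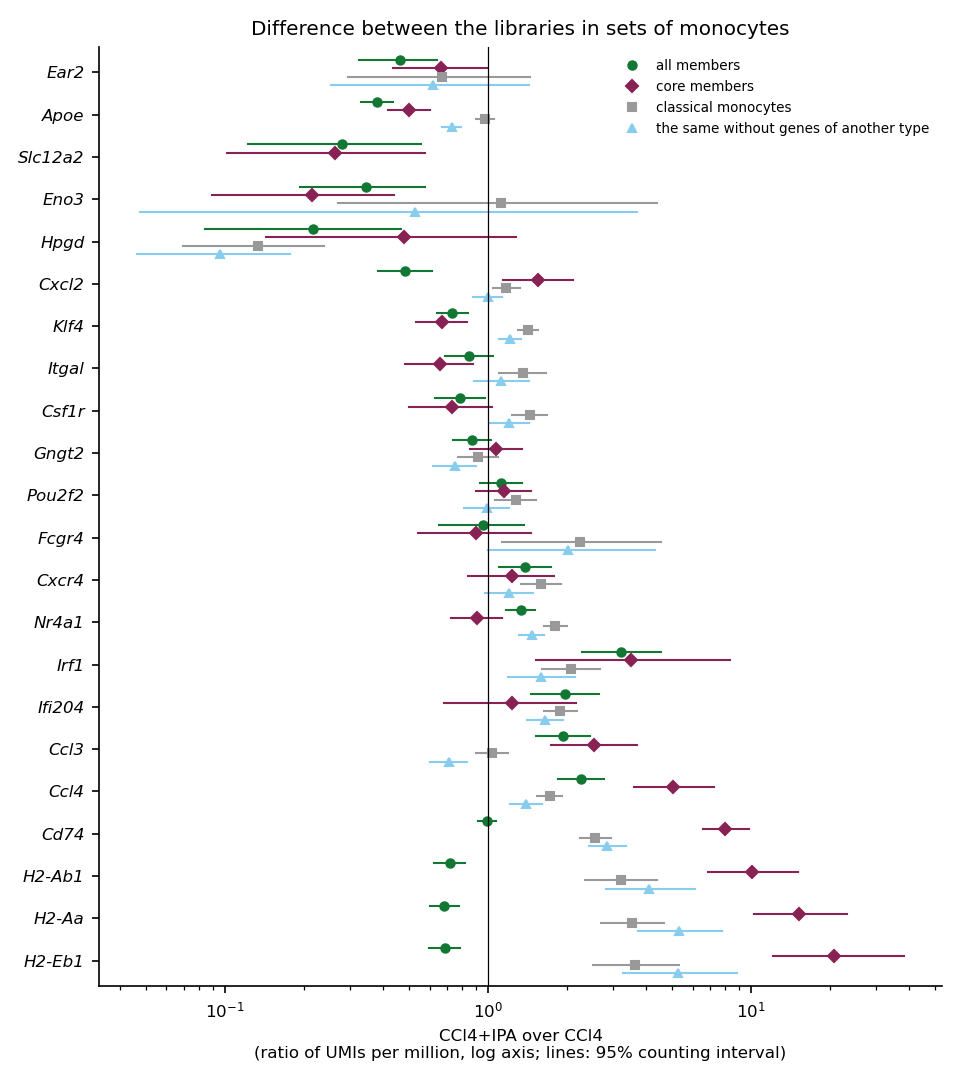
Ratio of CPM, CCl4+IPA over CCl4 (log axis), for named genes in all members (green), core members (purple), classical monocytes (grey) and these without genes of another type (light blue); Ear2 belongs to the rule, and lines are 95% counting intervals. Apoe lies left of 1 in both nonclassical sets (0.379 and 0.502) and at 0.976 and 0.727 in the classical sets, Klf4 lies on opposite sides of 1 in core members (0.668) and classical monocytes (1.42), and the MHC class II genes change side between all members and core members.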

How the data were processed

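Single-cell RNA was measured in 2 mouse liver libraries. The authors deposited whole-number UMI counts of every gene in every barcode. The file headers name Cell Ranger 7.1.0 and the submitters' processing notes name the build mm9, and no coordinates are given. The sources used here do not say whether intronic reads were counted. Of 55357 genes, 901 repeat an earlier symbol and were kept apart.

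Kept barcodes had at least 500 UMIs and 300 genes, with under 20% of UMIs from 37 mitochondrial genes. Doublets were not removed; Scrublet (scanpy 1.11.5) called 331 barcodes in CCl4+IPA and 278 in CCl4 and an alternative left them out. Counts were summed per population and library and divided by all UMIs of that population (CPM). Ratios carry exact conditional binomial intervals and shares exact Clopper-Pearson intervals, computed with Python 3.11.15, numpy 2.4.6, pandas 2.3.3 and scipy 1.17.1. The ratio intervals were tested on simulated Poisson counts without spread between barcodes. That test therefore does not cover genes whose UMIs gather in a single barcode. Figures were drawn with matplotlib 3.10.9. Reference T and B cells had at least 2 UMIs of Cd3e or Cd79a, no UMI of the other and no Lyz2. Near-identical gene copies cannot be told apart.

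The members, the marker and gene lists and the alternatives were chosen with earlier results of these data known, and core members after the members had been seen. Named genes were the 10 highest and 10 lowest between libraries and the 12 highest and 12 lowest against classical monocytes, ranked by the interval bound nearest to 1, with at least 100 CPM and 30 UMIs in the higher population; up to 6 members of each list were added. Genes over 10 times higher in reference lymphocytes, neutrophils or plasmacytoid dendritic cells had a ranking of their own, since free RNA may add to them. A few more, such as Crip1 and Nr4a2, were chosen after their values were seen.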

Additional observations from a re-analysis of the deposited data

How the results depend on the processing

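No paired analysis was possible because each group has 1 library, and for the same reason no replicate could be left out. The lower share of nonclassical monocytes in the CCl4+IPA library kept its direction in every alternative run, from −1.77 on the log2 scale with at least 4 of the 5 rule genes to −0.99 with at least 2, about a main value of −1.22. The ratio to classical monocytes ran from −1.87 to −1.09 about −1.32. The cause of the changes below was not tested. Core members and all alternatives that leave out members with genes of another type were chosen after seeing the data.

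The count of genes past 2-fold in nonclassical monocytes, CCl4+IPA over CCl4, was 513 and became 74 thinned to 1500 UMIs, 1177 with a minimum of 10 UMIs, 112 with a minimum of 50 UMIs, 242 in core members and 263 in core members without those over 100 Cd74 UMIs. The count of genes past 2-fold in both libraries, nonclassical over classical monocytes, was 211. It became 375 with at least 4 rule genes, 322 with Spn left out, 408 by the mean over cells, 360 with a minimum of 10 UMIs, 91 with a minimum of 50 UMIs, 339 without members with cDC2 genes, 434 in core members and 438 in these without those over 100 Cd74 UMIs.

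The following log2 ratios changed side of 0. Between libraries, CCl4+IPA over CCl4, thinning gave Apoe 0.35, Cst3 0.17, H2-Aa 0.45 and Il1b −0.59. At least 4 rule genes gave Bst2 −0.73, Ccl5 1.24, Crip1 −0.25, H2-Eb1 0.10, Ifi204 −0.019, Itgb2 −0.064, Rnf213 −0.95 and S100a6 −0.13, and at least 2 gave Camp 0.48 and Cst3 0.14. Leaving out Spn gave Ccl5 0.010, Ifi204 −0.12, Itgb2 −0.039 and Thbs1 −0.25. Core members gave Cxcl2 0.64, H2-Aa 3.92, H2-Ab1 3.33, H2-Eb1 4.37, Nr4a1 −0.14 and S100a9 −0.095. Core members without those over 100 Cd74 UMIs gave Cxcl2 1.02, H2-Aa 1.87, H2-Ab1 0.73, H2-Eb1 1.55, Il1b −0.11 and S100a9 −0.20. Without members with genes of another type Ccl5 was at 1.48, Cxcl2 at 0.13, H2-Aa at 2.66, H2-Ab1 at 1.90, H2-Eb1 at 3.50 and Thbs1 at −0.33. Without cDC2 genes H2-Aa was at 2.09, H2-Ab1 at 1.72 and H2-Eb1 at 2.93. With zero lymphocyte, NK and granulocyte genes Kcnq1ot1 was at −1.08, S100a8 at −3.10 and S100a9 at −2.90.

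Nonclassical over classical monocytes in the CCl4+IPA library, thinning gave Ccl2 0.98, Csf1r −0.11, H2-Eb1 −0.053 and Prtn3 0.48. Ccl2, H2-Eb1 and Prtn3 then had no UMI in nonclassical monocytes, so their values are upper bounds set by a floor of 3 UMIs. At least 2 rule genes gave Ccr1 0.079, Ctsb −0.045 and Irf8 0.23, and at least 4 gave Mmp8 −0.066. Leaving out Spn gave Mmp8 −0.52. Core members gave Mmp8 −2.22 and Prtn3 0.28, and without those over 100 Cd74 UMIs −1.84 and 0.67. Neither gene had a UMI in core members of this library, so these are upper bounds from the same floor and show no higher level of Prtn3. Without genes of another type Crip1 was at 0.033 and Mmp8 at −1.19. Without members with neutrophil genes Lcn2 was at −0.55, Mmp8 at −1.20, S100a8 at −2.69, S100a9 at −2.24 and Wfdc21 at −1.67. With zero lymphocyte, NK and granulocyte genes Crip1 was at 0.024, Lcn2 at −0.10, Mmp8 at −0.75, S100a8 at −2.52, S100a9 at −2.04 and Wfdc21 at −1.22. Wfdc21 had no UMI in nonclassical monocytes under either of these last alternatives, so its values are upper bounds too.

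Nonclassical over classical monocytes in the CCl4 library, Lcn2 was at −0.19 with Spn left out, −1.57 without neutrophil genes and −0.25 with zero lymphocyte, NK and granulocyte genes. At least 2 rule genes gave Mmp8 1.22. Thinning gave S100a8 −1.83 and S100a9 −1.66. Leaving out members with genes of another type gave S100a8 −0.41, and leaving out those with neutrophil genes gave S100a8 −3.05 and S100a9 −2.59.

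With 34 members in CCl4+IPA and 78 in CCl4, and 67431 UMIs of core members in CCl4+IPA and 162356 in CCl4, a gene near 20 UMIs has an interval several fold wide, and 1 barcode can set its ratio.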
